A study of Homo sapiens with 2 samples.

Results

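MicroRNA probe sets with a readable signal were examined in S2-013 cells with and without a MEK inhibitor. They were defined as probe sets whose gene symbol is that of a microRNA gene, host genes excluded, and whose higher log2 value of the 2 arrays was at least 4.78, called the floor here. Of 53617 probe sets, 1236 carried a microRNA symbol, and 236 of those (19.1%), for 194 symbols, reached the floor. The floor stands in for detection only, because no detection calls were used, and the members were chosen by their level on these same arrays. In 11 symbols, 24 probe sets repeated the values of another probe set of the same symbol exactly, which left 212 distinct measurements, the unit counted below. MIR4640 had 5 such identical probe sets, MIR877 6 and MIR4646 7.

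S2-013 is a pancreatic cancer cell line. In both groups HOXB7, a homeobox transcription factor, had been knocked down and then supplied again from a rescue plasmid, so that the control also carried the knockdown and the plasmid. One group had additionally received a MEK inhibitor, and the other had not. There was 1 array per group, and total RNA was hybridised to whole-transcript arrays. The sources used here do not state the name, dose or duration of the inhibitor, the means of knockdown or whether the cells were 1 clone. With 1 array per group no difference has a replicate check, no test was possible, and every fold below compares these 2 arrays.

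MicroRNAs are short RNAs that lower the stability and translation of messenger RNAs. They arise from longer primary transcripts, in which a hairpin is released by DROSHA with DGCR8, exported by XPO5 and cleaved by DICER1, and one arm is loaded onto an Argonaute protein. Target recognition rests mainly on the seed near the 5′ end, so that microRNAs sharing a seed are grouped as a family. Many hairpins lie inside introns or exons of longer genes or in clusters transcribed together. MEK activates ERK, and ERK signalling is known to alter the transcription of several microRNA genes. A column-purified total RNA preparation and a whole-transcript labelling favour longer RNA, and whether a probe set here read a mature microRNA, its hairpin or a longer transcript cannot be told apart.

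The hairpins of the 4 microRNAs that differed by 2-fold or more are shown because they carry the largest differences. The sequences are those of RefSeq on GRCh38.p14, written 5′ to 3′ on the strand of the gene, and capitals mark the annotated mature arms. MIR31 lies at chr9:21512115-21512185 on the minus strand within the long noncoding gene MIR31HG. MIR4640 lies at chr6:30890883-30890972 on the plus strand within DDR1. MIR3972 lies at chr1:17277889-17277975 on the plus strand within the span of PADI3. MIR4677 lies at chr1:243346176-243346255 on the plus strand within SDCCAG8. Exon and intron positions inside these hosts were not analysed here.
MIR31: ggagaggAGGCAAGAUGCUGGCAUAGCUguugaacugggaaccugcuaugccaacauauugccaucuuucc
MIR4640: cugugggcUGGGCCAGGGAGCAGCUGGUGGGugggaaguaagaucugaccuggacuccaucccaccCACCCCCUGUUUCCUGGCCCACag
MIR3972: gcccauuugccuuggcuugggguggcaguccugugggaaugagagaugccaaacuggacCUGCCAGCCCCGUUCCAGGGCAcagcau
MIR4677: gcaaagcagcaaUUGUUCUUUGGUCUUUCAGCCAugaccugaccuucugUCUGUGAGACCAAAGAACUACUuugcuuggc

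The mature sequences of some of the members that fall into seed families are shown to make the shared letters visible. Capitals mark the seed, bases 2 to 8. Of the 194 symbols, 175 had a mature sequence in the RefSeq table. There 13 seeds were shared by 2 or 3 symbols, and only a part of these is shown.
hsa-let-7a-5p: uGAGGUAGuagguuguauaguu
hsa-let-7d-5p: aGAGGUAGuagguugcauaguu
hsa-miR-98-5p: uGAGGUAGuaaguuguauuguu
hsa-miR-181b-5p: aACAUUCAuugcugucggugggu
hsa-miR-181c-5p: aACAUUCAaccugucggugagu
hsa-miR-181d-5p: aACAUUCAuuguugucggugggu
hsa-miR-25-3p: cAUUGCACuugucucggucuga
hsa-miR-92b-3p: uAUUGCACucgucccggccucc
hsa-miR-15a-5p: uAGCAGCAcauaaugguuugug
hsa-miR-16-5p: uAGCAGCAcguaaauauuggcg
hsa-miR-3972: cUGCCAGCcccguuccagggca
hsa-miR-1202: gUGCCAGCugcagugggggag

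HOXB7, the gene knocked down and resupplied in both groups, read 5.85 with the inhibitor and 5.84 without it. Of 8 ductal carcinoma markers 6 were named on the array, and all 6 reached the floor. KRT7 reached it only with the inhibitor, at 4.91 against 4.56 without. CEACAM6 read 8.03 with the inhibitor and 9.92 without. None of the named fibroblast, endothelial or acinar and islet markers reached the floor, 2 of each kind. The 1 named leukocyte marker, CD68, which epithelial lines can also express, read 8.53 with the inhibitor and 8.95 without it. The median over all probe sets was 3.46 on the inhibitor array and 3.49 on the other.

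Most microRNA measurements lay a little lower with the inhibitor, and few lay far from 0. The log2 difference, inhibitor minus no inhibitor, was below 0 in 143 of the 212 measurements (67.5%) and above 0 in 69. Among all 16286 distinct measurements at the floor or above, 49.7% were below 0. The microRNA median was -0.13, against 0.00 over all those measurements, and the differences ran from -1.19 to 0.80, with 179 of 212 within 0.5 of 0. Their SD of 0.35 was close to the 0.38 over all measurements. The members share hosts, clusters and labelling, so they are not independent readings.

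Few microRNAs differed by 2-fold. At least 2-fold lower with the inhibitor were 4 of the 212 measurements, each of a different symbol. The background was 1.24% of all measurements (202 of 16286). At least 2-fold higher were 0 of the 212, against a background of 0.878%. Counts this small cannot be told apart from the background. At 1.5-fold, 18 were lower (background 5.35%) and 4 were higher (background 4.68%). Hence 8.49% of the microRNA measurements were at least 1.5-fold lower and 1.89% at least 1.5-fold higher.

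The rule of taking the higher array fixes part of these directions. A measurement that reached the floor only without the inhibitor had to be lower with it, and there were 29 such, with a median of -0.46. Another 15 reached it only with the inhibitor and had to be higher, with a median of 0.40. The remaining 168 were at or above the floor on both arrays, and of these 114 were lower and 54 higher, with a median of -0.10. That is 67.9% below 0, against 49.2% of the 14502 measurements of any kind at or above the floor on both arrays. In that set 8 microRNA measurements (4.76%) were at least 1.5-fold lower, near the background of 3.72%. There 1 (0.595%) was at least 1.5-fold higher, against a background of 3.41%. At least 2-fold lower were 1 of the 168 and 93 of the 14502. Divided by mean level, 77.5% of the 71 brightest measurements were below 0, against 49.7% of all measurements over the same range of levels. The share was 57.1% in the 70 of middle level, against 47.9%, and 67.6% in the 71 dimmest, against 52.1%. The 1000 microRNA probe sets below the floor had a median of -0.02, and 53.9% of them were below 0.

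**Figure D1:**
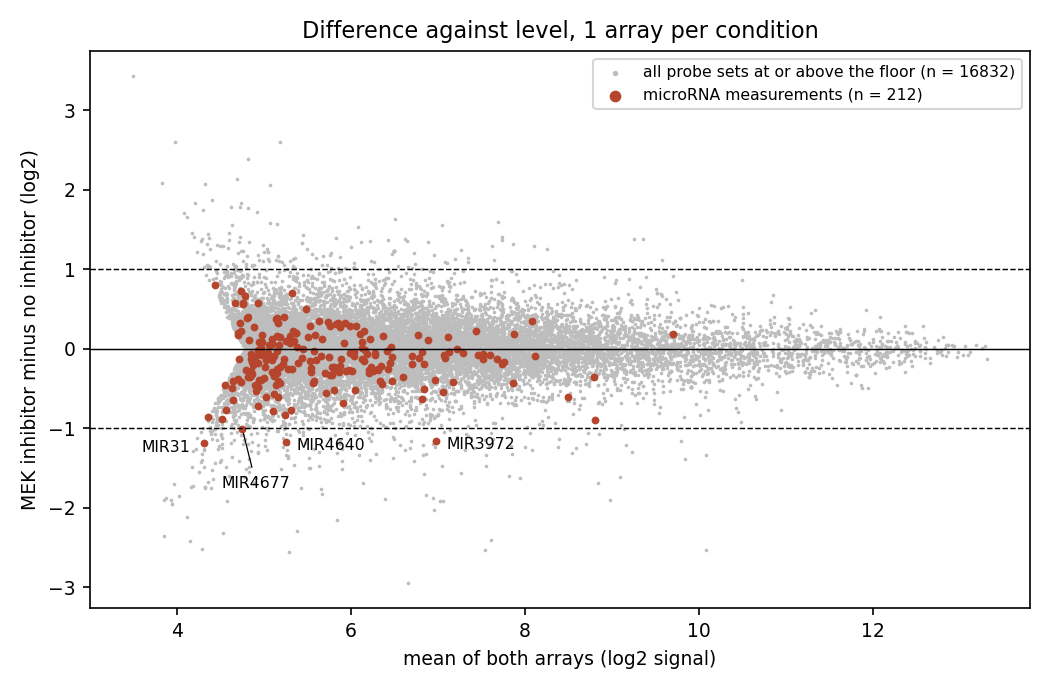
Red points are the 212 microRNA measurements and grey points all 16832 probe sets at or above the floor, with the mean of both arrays (log2) on the x axis and the difference, inhibitor minus no inhibitor (log2), on the y axis, with guide lines at 0 and at 2-fold. More red points lie below 0 (143) than above (69), and of them only MIR31, MIR4640, MIR3972 and MIR4677 pass the lower 2-fold line.

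MIR31, a microRNA often studied in cancer and known to act on several genes of cell motility and RAS signalling, read 3.71 with the inhibitor and 4.90 without it. It was 2.28-fold lower with the inhibitor, a log2 difference of -1.19, and was below the floor on the inhibitor array. MIR4640 read 4.67 with the inhibitor and 5.84 without it, 2.25-fold lower and again below the floor on the inhibitor array. MIR4677 read 4.25 and 5.26 in the same order, 2.01-fold lower, and crossed the floor in the same way. MIR3972 read 6.40 with the inhibitor and 7.56 without it, 2.23-fold lower, and was the only 2-fold difference with both arrays above the floor. For 3 of the 4 the direction was thus fixed by the way members were chosen.

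The next lowest differences came from mixed loci. A probe set of MIR3689F read 8.36 with the inhibitor and 9.25 without, a difference of -0.89, which another probe set of the same symbol did not share. MIR644A, inside ITCH, read 4.08 and 4.96 in the same order, a difference of -0.88. MIR3934 read 3.93 and 4.78, a difference of -0.85. MIR4686 read 4.83 and 5.66, above the floor on both arrays, a difference of -0.83. MIR134 and MIR539, both of the chromosome 14 imprinted region, followed with -0.78 and -0.77. Of these 6, MIR3689F, MIR4686 and MIR539 were above the floor on both arrays.

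The highest differences were smaller. MIR770 read 4.83 with the inhibitor and 4.03 without it, 1.74-fold higher. MIR4747 read 5.11 and 4.37 in the same order, a difference of 0.73. MIR3198-1 read 5.67 and 4.97, a difference of 0.71, and was the only one past 1.5-fold that was above the floor on both arrays. MIR3620 read 5.11 and 4.45, a difference of 0.67. The rest of the 10 highest were MIR4756 at 0.58, MIR188, MIR147A and MIR378I at 0.57 each, MIR4689 at 0.50 and MIR662 at 0.40. Of the 10, MIR3198-1, MIR4689 and MIR662 were above the floor on both arrays.

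**Figure D2:**
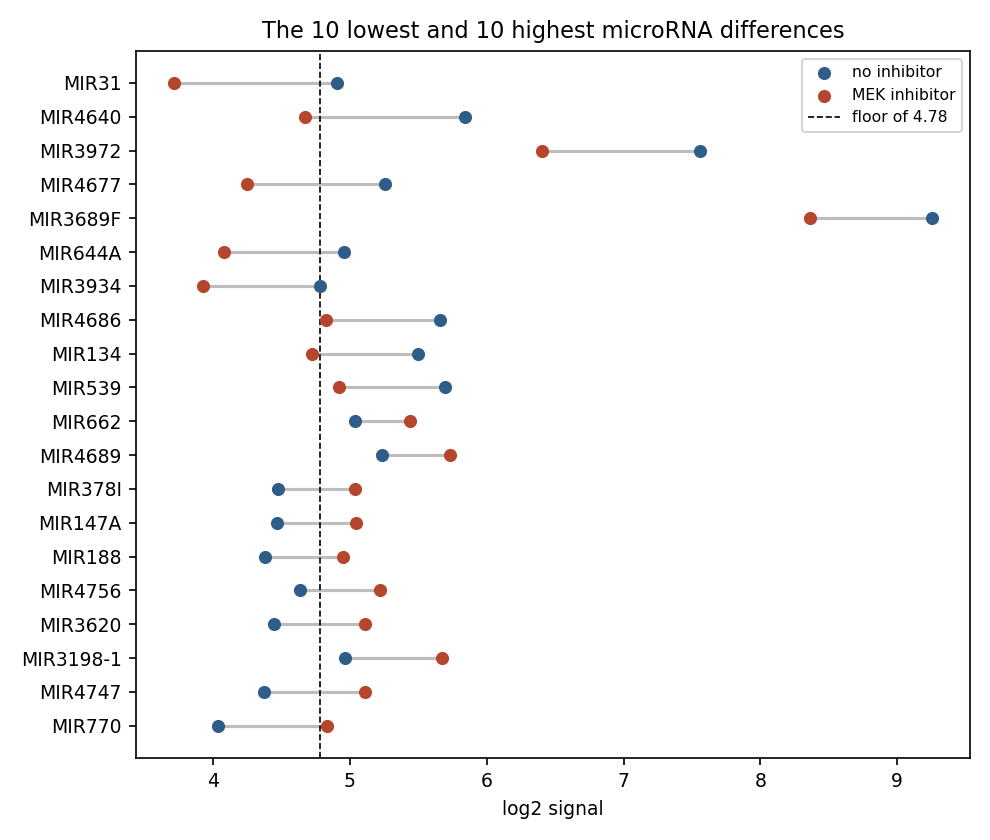
The 10 lowest and the 10 highest differences are drawn with the log2 value of each array as a point and a line joining both arrays. The inhibitor value is to the left in the lowest 10 (MIR31 at 3.71 against 4.90) and to the right in the highest 10 (MIR770 at 4.83 against 4.03).

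Among the 10 measurements with the strongest signals, MIR3689F and MIR4442 were at least 1.5-fold lower with the inhibitor, and the other 8 differed by less than 1.5-fold in either direction. A strong signal is not a large amount of microRNA, because probe sets differ in how well they hybridise. MIR4737 read 9.81 with the inhibitor and 9.61 without, a difference of 0.19. MIR622, which lies within the span of a keratin 18 pseudogene, read 8.62 and 8.98, a difference of -0.35, and KRT18 itself differed by -0.29. MIR4442 read 8.20 and 8.80, a difference of -0.61, and its other probe set gave -0.50. The rest of the brightest were MIR5047 at -0.10, MIR4481 at 0.35, MIR3619 at 0.19, MIR574 at -0.43, MIR3907 at -0.16 and MIR4732 at -0.19, beside the MIR3689F probe set above.

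Several lists of microRNAs from the literature were followed through, with directions given as differences of log2 values. Of all 212 microRNA measurements, 67.5% were below 0 and the median was -0.13. Of 12 let-7 genes, which are known to repress RAS and MYC and to mark differentiation, 11 were named on the array and 3 reached the floor, all 3 lower with the inhibitor, with a median of -0.26. MIRLET7A3 read 5.43 with the inhibitor and 5.99 without, a difference of -0.56. MIR98, of the same seed GAGGUAG, read 6.07 and 6.33, a difference of -0.26. MIRLET7D read 4.96 and 4.98, a difference of -0.02. The other 8 lay below the floor and were mixed in direction.

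The miR-181 seed ACAUUCA gave 3 lower values, where 67.5% of all microRNA measurements were below 0. MIR181C read 4.67 with the inhibitor and 5.12 without, a difference of -0.45, in a direction fixed by the choice of members. MIR181B1 differed by -0.29 and MIR181D by -0.02. The seed AUUGCAC gave MIR25 at -0.41 and MIR92B at -0.21. The seed AGCAGCA gave MIR16-1 at 0.23 and MIR15A at -0.09, of opposite sign. MIR16-1 reached the floor only with the inhibitor and had to be higher. The seed UGCCAGC joined MIR3972 at -1.16 to MIR1202, which read 6.20 with the inhibitor and 6.02 without, a difference of 0.19. Among the seeds given here, a common seed went with a common sign in some families and not in others. This is a description only, because some of these signs were fixed and not all shared seeds are given.

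MIR21 and MIR210 are abundant in many carcinomas, MIR210 being known as a target of hypoxia signalling, and MIR375 is known from islet and epithelial cells. They were the 3 of 11 microRNAs often studied in pancreatic cancer that reached the floor, and all 3 were slightly lower, with a median of -0.09. MIR21 read 6.66 with the inhibitor and 6.75 without it. MIR210 read 6.12 and 6.35, and MIR375 read 5.97 and 6.02. Of 10 microRNAs often studied with RAS and ERK signalling, MIR31 and MIR21 reached the floor, both lower, MIR31 only without the inhibitor. MIR21, MIR210 and MIR375 were all within 1.5-fold, and 67.5% of all microRNA measurements were below 0.

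Of 15 genes of the miR-17-92 cluster and its paralogues, 9 were named on the array and 2, MIR25 and MIR106B, reached the floor. MIR25 read 5.37 with the inhibitor and 5.78 without it, and MIR106B read 4.66 and 5.01, differences of -0.41 and -0.35. MIR106B reached the floor only without the inhibitor and had to be lower. Of 8 genes of the miR-15/16 family 3 reached the floor, 1 lower and 2 higher, with a median of 0.23. Both higher ones, MIR16-1 and MIR503, reached it only with the inhibitor and had to be higher. MIR503 read 5.01 and 4.61. MIR24-2, at 0.13, was the 1 of 6 genes of the miR-23/27/24 clusters that reached the floor. MIR30E, at -0.32, was the 1 of 10 genes of the miR-29 and miR-30 families that did, only without the inhibitor.

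Some lists gave no measurement at the floor. None of 7 epithelial microRNAs (the miR-200 family, MIR203A and MIR205) reached it, although EPCAM did, and none of the 5 named microRNAs of the HOX clusters did. All 11 microRNAs within or beside small nucleolar RNAs that were looked for were unnamed on the array. A value below the floor does not show that a microRNA was absent.

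Genes of microRNA production and silencing are members of the wider pathway. Of 29 such genes 16 were named on the array and 14 reached the floor. Of these 10 were lower and 4 higher, with a median of -0.13 and none at 2-fold. Of all named probe sets other than microRNAs at or above the floor, 46.5% were below 0, with a median of 0.02. The lowest of the 14 genes were SRRT and HNRNPA1, both at -0.31. Then came HNRNPA2B1 and TARBP2, both at -0.30, XPO5 at -0.29 and KHSRP at -0.26. XPO5, the exporter of hairpins, read 7.39 with the inhibitor and 7.68 without it. DDX17, an RNA helicase of the DROSHA complex, read 9.42 and 9.15 and was the highest at 0.27. DGCR8, the RNA-binding partner of DROSHA, read 6.50 and 6.35. DROSHA, DICER1 and the Argonaute genes were not named on the array.

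Many members could read a host transcript. Of the 194 symbols 106 lay on the same strand within a longer gene, 15 on the opposite strand only, 34 within a gene whose strand the tables did not give, and 39 within none. A same-strand host above the floor on at least 1 array was available for 51 measurements, from 45 hosts. In 29 of these measurements the microRNA and its host differed in the same direction, while in 22 they did not. A host above the floor on only 1 array had its direction fixed by that choice. PCED1B, for example, had to be higher and TRIB2 lower. Over these 51, which share hosts and arrays, Pearson's r was -0.24 and Spearman's rho -0.12, and without the 2-fold members, over 48, r was 0.08. In 39 pairs the microRNA was at or above the floor on both arrays, a restriction chosen after seeing the data and not applied to hosts. Of these 39 pairs 23 had the same sign and 16 did not, with r 0.09. The hosts' median was -0.10. Opposite-strand hosts gave 13 measurements from 11 hosts, 11 of the same sign, with r 0.57 and rho 0.66. Among these 13, MIR3130-1 and MIR3934 reached the floor only without the inhibitor and had to be lower. The same held for the hosts TLR6 and RTL1. MIR574 and MIR4746 also lay within a same-strand host, and STARD10 and PKD1 were each paired with more than 1 measurement. The 39 symbols outside any longer gene gave 43 measurements with a median of -0.12, close to the whole set. These coefficients describe points of 1 pair of arrays and carry no test.

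The pair with the widest gap between a microRNA and its host was MIR31 and MIR31HG. MIR31HG, the long noncoding RNA that spans it, read 6.78 with the inhibitor and 5.44 without it, 2.53-fold higher, while MIR31 was 2.28-fold lower. DDR1, a collagen receptor kinase that spans MIR4640, read 7.38 and 6.95 and was higher by 0.43. SDCCAG8, a centrosomal protein gene that spans MIR4677, read 7.08 and 6.94 and was higher by 0.15. These 3 microRNAs reached the floor only without the inhibitor, so their lower direction was fixed by the choice of members, and the opposite direction of their hosts is a description only. PADI3, whose span holds MIR3972, had no named probe set.

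**Figure D3:**
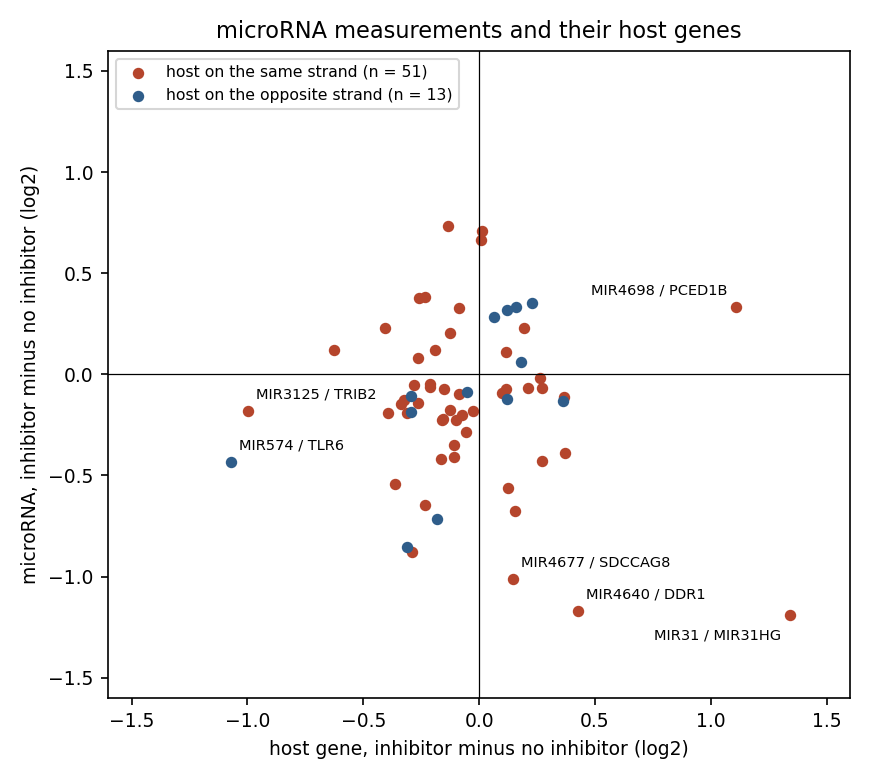
Each point is 1 microRNA measurement paired with a host above the floor on at least 1 array. The host's difference is on the x axis and the microRNA's on the y axis (both log2, inhibitor minus no inhibitor). The 51 same-strand pairs are in red and the 13 opposite-strand pairs in blue. MIR31 with MIR31HG lies far to the lower right (1.34 and -1.19), and the same-strand points show no common slope (r -0.24).

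Other hosts differed less. ITCH, a ubiquitin ligase, read 10.1 with the inhibitor and 10.4 without, a difference of -0.29 beside -0.88 for MIR644A. MCM7, a replication helicase subunit that spans MIR25 and MIR106B, read 8.84 and 8.95, a difference of -0.11. VMP1, an autophagy gene that spans MIR21, read 11.5 and 11.4. C16orf74 differed by -0.36 beside -0.54 for MIR1910, FADS1, a fatty acid desaturase gene, by -0.34 beside -0.15 for MIR1908, and SREBF1, a regulator of lipid synthesis, by -0.15 beside -0.22 for MIR33B. BID and ARF1, hosts of MIR3198-1 and MIR3620, each differed by 0.01. UHRF1, host of MIR4747, differed by -0.13.

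Other pairs differed in size, and some of them also in sign. PCED1B read 5.31 with the inhibitor and 4.20 without, a difference of 1.11, beside 0.33 for MIR4698. It was below the floor without the inhibitor, so PCED1B had to be higher. TRIB2, a pseudokinase gene, read 4.52 and 5.52 in its brighter probe set. That probe set was below the floor with the inhibitor and had to be lower. The mean difference over the TRIB2 probe sets was -0.47, beside -0.18 for MIR3125. KIF15, a mitotic kinesin gene, differed by -0.63 beside 0.12 for MIR564. The microRNA differed more than its host elsewhere. SPACA6 differed by 0.16 beside -0.68 for MIR99B, and DALRD3 by 0.12 beside -0.56 for MIR191. On the opposite strand, TLR6, an innate immune receptor, read 4.48 and 5.55, a difference of -1.07, beside -0.43 for MIR574. TLR6 was below the floor with the inhibitor and had to be lower. MIR574 also lies on the same strand within FAM114A1, which had no named probe set.

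In all, 7 sets of neighbours lay within 10 kb of one another on 1 strand. In the MCM7 cluster MIR25 and MIR106B were alike, and MIR93 between them was below the floor at 3.60 with the inhibitor and 3.63 without it. In the cluster of chromosome 13 within DLEU2, MIR16-1 and MIR15A differed by 0.23 and -0.09. On chromosome 19, MIR181C differed by -0.45 and its neighbour MIR181D by -0.02. MIR3677 and MIR4717 on chromosome 16 differed by -0.04 and -0.02, and MIR1914 and MIR647 on chromosome 20 by -0.07 and 0.11. MIR16-1 reached the floor only with the inhibitor, and MIR181C and MIR106B only without it. The directions of these members were thus fixed by the way members were chosen. Neighbours had the same sign in some clusters and opposite signs in others, which is a description only.

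The cluster of near-identical MIR3689 genes on chromosome 9 was the most uneven. MIR3689A differed by 0.01, MIR3689D1 by -0.21, MIR3689D2 by -0.26 and MIR3689B by -0.60. MIR3689E was below the floor at 3.35 with the inhibitor and 2.96 without it, a difference of 0.39. The probe sets of MIR3689F gave -0.89 and 0.29. Their sequences are so alike that probe sets may share targets, so these values cannot be assigned to 1 copy with certainty.

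On chromosome 14, the imprinted region from MEG3 to MIR656 holds a long run of microRNAs expressed from the maternal allele. It was looked at after MIR134 and MIR539 had been seen. Of 52 measurements there 6 reached the floor, 5 lower and 1 higher. For 4 of the 6 the direction was fixed by the choice of members: MIR134, MIR412 and MIR654 reached the floor only without the inhibitor, and MIR770 only with it. MIR134 read 4.72 with the inhibitor and 5.50 without it, MIR539 4.92 and 5.69, MIR412 4.39 and 4.88 and MIR654 4.32 and 4.78. MIR127 differed by -0.09. MIR770, within MEG3, was the higher one, and MEG3 itself was below the floor at 2.54 and 2.58. The 46 measurements below the floor had a median of 0.01, 21 lower and 25 higher.

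Probe sets of the same microRNA gave the only error that could be measured. In 18 symbols there were 18 pairs of different probe sets that both reached the floor, and probe sets below it were left out. The log2 differences within a pair lay apart by a median of 0.14, from 0.008 to 1.18. Of these pairs 6 were of opposite sign. Gaps of at least 0.5 were found for MIR3689F and for MIR3160-1, whose probe sets gave -0.65 and 0.38. The first MIR3160-1 probe set reached the floor only without the inhibitor and the second only with it. Their opposite signs were thus fixed by the choice of members. The spread between probe sets covers probes and not cultures.

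**Figure D4:**
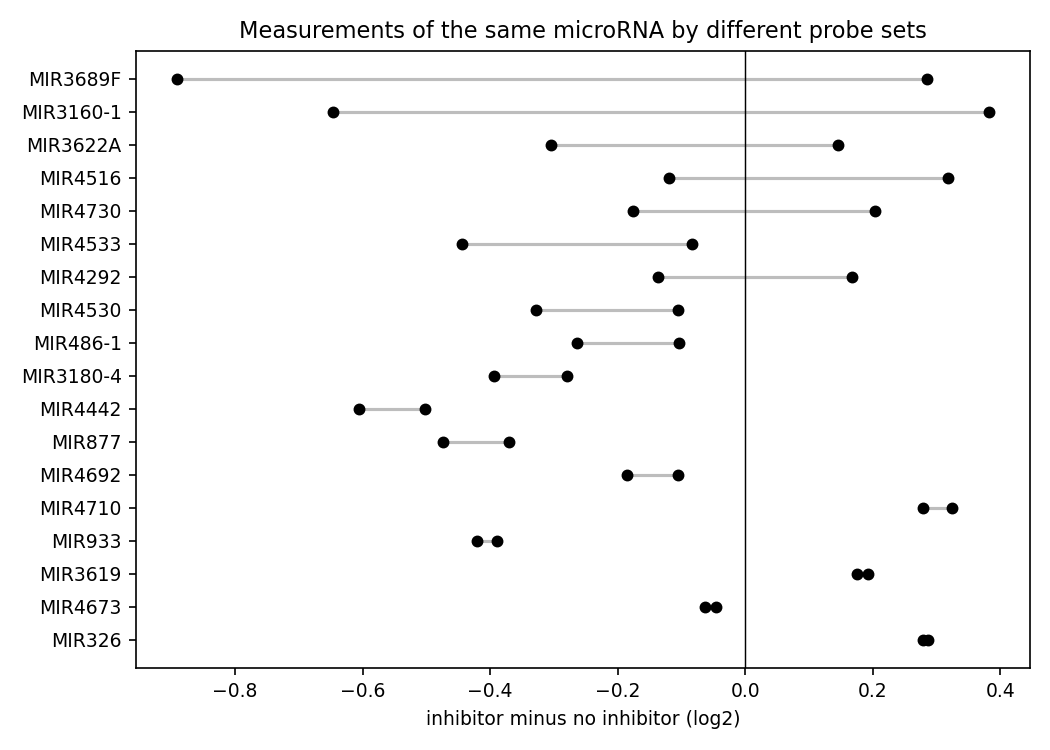
Each row is a microRNA with more than 1 distinct measurement, and the joined points are the differences of its probe sets (log2, inhibitor minus no inhibitor). The 18 pairs are mostly close, with a median gap of 0.14, while MIR3689F and MIR3160-1 span more than 1. Both signs of MIR3160-1 were fixed by the choice of members.

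Base composition separated the microRNAs that reached the floor from the others. Hairpins of the 165 symbols with a sequence that reached it had a median of 61.0% G and C, and the 719 below it 45.8%, with median hairpin lengths of 81 and 83 bases. The share that reached the floor was 5.61% (27 of 481) under 50% G and C, 19.3% (48 of 249) from 50 to 60%, 55.4% (67 of 121) from 60 to 70% and 69.7% (23 of 33) from 70% up. Across the 884 symbols, which share both arrays, r between G and C content and mean level was 0.65. The difference between arrays followed it little, with r 0.10 over the 165 and -0.07 over the 884. The part of composition in which microRNAs were counted as detected was not tested.

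**Figure D5:**
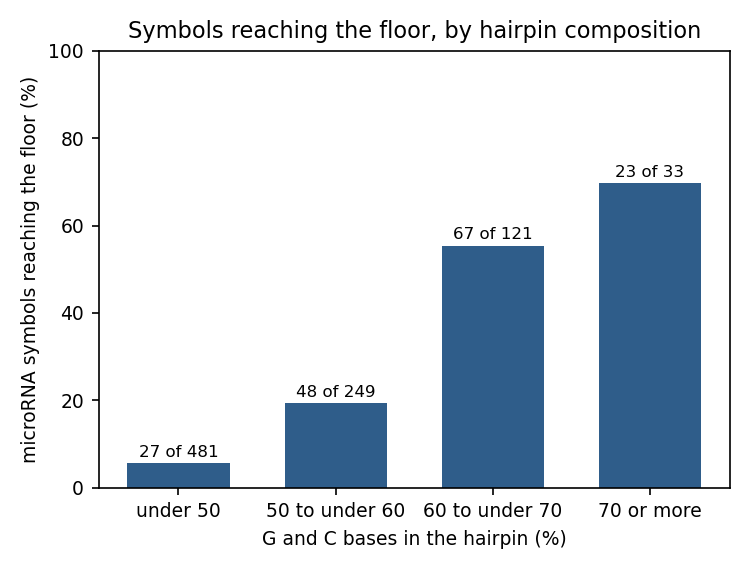
Bars give the percentage of microRNA symbols with a hairpin sequence that reached the floor, by the G and C content of the hairpin (%), with the counts above each bar. The share goes from 5.61% under 50% to 69.7% at 70% and more.

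Near the floor, the members just inside were MIR645, MIR3934 and MIR654 at a higher value of 4.78, MIR3928 at 4.79 and MIR338 at 4.80. Just outside were MIR4418, MIR3157 and MIR1539 at 4.76, 1 probe set of MIR4653 at 4.75 (another probe set of it is a member) and MIR3138 at 4.74.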

How the data were processed

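The authors deposited 1 log2 value per probe set and array. That scale was read from their range, 1.16 to 13.4. Affymetrix Expression Console 1.3 is named per the submitters' processing notes, while the settings it ran with are not stated there. RNA was column-purified (RNeasy) and labelled with the GeneChip WT PLUS kit, per the labels' protocols. Groups come from the sample titles. The platform annotation gave 1 symbol for 16098 probe sets and none for 37519, with 0 holding several.

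Differences are inhibitor minus no inhibitor, with no test. Probe sets of 1 symbol with equal values on both arrays were counted once. Hosts are longer genes of the RefSeq table (GRCh38.p14), each at its probe set of highest mean, and clusters lie within 10 kb. Members, lists and rules were chosen with earlier results of these data known. Named are members past 2-fold, the 10 lowest, highest and brightest, those on lists, in clusters, with several probe sets or near the floor, and their hosts, with up to 8 production genes. MIR1202, MIR412, MIR127 and the chromosome 14 region were added after their values were seen, as were some hosts of other members. Alternatives were 2 scalings, other floors, fold thresholds and host definitions, and averaged or repeated probe sets. The counting was tested on simulated data. Python 3.11.15, pandas 2.3.3, scipy 1.17.1 and statsmodels 0.14.6 were used. Precision is limited by 1 array per group.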

Additional observations from a re-analysis of the deposited data

Results flagged for a closer look

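MIR598 gave a signal among the microRNA probe sets below the floor, which are not members. Its value was 4.33 on the inhibitor array and 3.11 on the other, which is 1.22 higher on the log2 scale, and it was below the floor on both arrays. No microRNA at or above the floor was 2-fold higher. There is 1 array per group, and the cause was not tested.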

How the results depend on the processing

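No paired analysis was possible because 1 array per group leaves nothing to pair, and no array could be left out. The count of 4 measurements at least 2-fold lower became 7 with no floor, 1 with a floor at the 75th percentile (6.27), 2 with the floor on the mean of both arrays, 1 without members inside a same-strand host and 8 with every probe set counted, a setting chosen after seeing the data. At 1.5-fold it was 18 and at 3-fold 0. The count of 0 at least 2-fold higher became 1 with no floor and 4 at 1.5-fold. The cause of these moves is the construction of each setting, which changes the measurements counted or the threshold. The median over members kept its sign under all settings run, from -0.04 with no floor to -0.16 with the 75th percentile floor. Both scalings left the counts at 4 and 0, shifted no named member by more than 0.02 and changed the sign of 1 value, MIR3689A. List and host medians kept their sign. Of the values for named members, 14 moved by more than 0.14 when probe sets of 1 symbol were averaged. Signal near the floor limits 3 of the 4 largest differences.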

Other observations

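Some microRNAs with known roles in carcinoma or in ERK signalling had values below the floor and are not members. MIR221 read 3.56 with the inhibitor and 4.20 without, a difference of -0.64, and its neighbour MIR222 differed by -0.26. MIR200C, a microRNA of epithelial cells, read 3.98 and 3.20, a difference of 0.78, while MIR141, from the same cluster, differed by 0.07. MIR196B, of a HOX cluster, read 4.48 and 4.24. Below the floor, MIR4725 at -1.28, MIR4295 at -1.08 and MIR4706 at -1.01 were at least 2-fold lower with the inhibitor. These are values of 2 arrays at low signal, and none was tested.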
